A study of Mus musculus with 6 samples.

Results

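The 9 genes described here encode complement components and complement receptors: C1qa, C1qb and C1qc, C4b, C3, Cfb, Cfp, C3ar1 and C5ar1. They are 9 of the 31053 genes listed in each of the 6 deposited matrices. Complement is a cascade of plasma and tissue proteins in which C1q bound to antibody or dying cells starts the classical pathway through C4, both it and the alternative pathway converge on C3, and the small fragments C3a and C5a act on receptors of myeloid cells. The liver supplies most plasma complement, but C1q is made chiefly by macrophages and dendritic cells, and C3, C4 and factor B are also made locally by fibroblasts and other stromal cells. In wounds, complement takes part in opsonisation, in the clearance of dead cells and in drawing in neutrophils.

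The study used dendritic cells (DCs) lacking Ndrg2 as a cell therapy for skin wounds and deposited 6 single-cell libraries (10x 3′ v3), 3 from cultured DCs and 3 from wounds. The cultured cells were bone marrow-derived DCs grown with GM-CSF from C57BL/6 wild-type mice. The groups were untreated DCs, DCs given 1e-06 M vitamin D3 (VD3) for 24 hours, and DCs nucleofected with Cas9 and 3 guides against Ndrg2 (Ndrg2-KO DCs). The untreated cultures were not nucleofected, so the knockout and the nucleofection cannot be told apart in culture. The wounds were splinted, full-thickness excisional wounds of 6-week-old C57BL/6J wild-type mice of both sexes, each treated with a pullulan-collagen hydrogel and explanted on day 10. The hydrogels were seeded with control DCs, seeded with Ndrg2-KO DCs, or left blank. The labels call the seeded control cells untreated and the study's methods give them non-targeting guides. Each wound group had 5 mice, whether they were pooled is not stated, and each group is 1 library, so no value here carries variation between mice or cultures and no comparison was tested.

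Cells were kept with at least 300 genes, under 100000 unique molecular identifiers (UMIs) and under 10% of UMIs from mitochondrial (mt-) genes, which left 35083 of 41068 barcodes. The untreated, VD3 and Ndrg2-KO cultures kept 7257, 8825 and 7969 cells with medians of 15804, 12089 and 16316 UMIs. The wounds with control DCs, with Ndrg2-KO DCs and with blank hydrogel kept 1948, 5681 and 3403 cells with medians of 10795, 4415 and 5603 UMIs. The wound library with the most cells thus had the fewest UMIs per cell. Every pair of libraries shared between 1 and 19 cell barcodes. Levels are counts per 1000000 UMIs (CPM) of a library or of a group of its cells, and ranges in brackets are exact 95% intervals (Poisson for CPM, conditional binomial for log2 ratios, Clopper-Pearson for shares of cells) that hold counting error only. CPM from 3′ UMI counting is on a scale of RNA molecules counted, which is the only scale on which genes are compared below.

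Ndrg2 RNA was checked against the labels. It stood at 4.62 CPM (613 UMIs) in untreated DCs, 1.42 CPM (165 UMIs) in VD3 DCs and 0.884 CPM (127 UMIs) in Ndrg2-KO DCs. The Ndrg2-KO culture was the lowest of the 3, but Ndrg2 was scarce in every culture, and a 3′ tag count need not show an edit of the gene. In the wounds Ndrg2 stood at 6.10 CPM (5.24 to 7.06) with control DCs, 3.33 CPM (2.84 to 3.88) with Ndrg2-KO DCs and 3.29 CPM (2.72 to 3.95) with blank hydrogel, and the last 2 intervals overlapped.

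The 3 chains of C1q, the recognition molecule of the classical pathway, were present in every culture. C1qa stood at 129 CPM (127 to 131) in untreated DCs, 251 CPM (248 to 254) in VD3 DCs and 90.5 CPM (88.9 to 92.1) in Ndrg2-KO DCs. C1qb stood at 297 CPM (294 to 299.6), 445 CPM (441 to 449) and 397 CPM (394 to 400.3) in the same order. C1qc stood at 103 CPM (102 to 105), 157 CPM (155 to 159) and 139 CPM (137 to 141). VD3 DCs were highest for each chain, and no intervals overlapped, but the chains parted in the Ndrg2-KO culture, which was lowest for C1qa and in the middle for C1qb and C1qc. The log2 ratio of Ndrg2-KO to untreated DCs was -0.51 (-0.54 to -0.47) for C1qa, 0.42 (0.40 to 0.44) for C1qb and 0.43 (0.40 to 0.46) for C1qc. Among cells under 5% mt- UMIs (3125, 3619 and 1721 cells) the C1qa levels were 51.4, 114 and 82.4 CPM, and the ratios of Ndrg2-KO to untreated for the 3 chains became 0.68, 1.21 and 1.25. C1qb stood at 143, 212 and 331 CPM in those cells and C1qc at 48.4, 72.0 and 115 CPM. The sign of the C1qa difference between Ndrg2-KO and untreated DCs therefore turned with the mitochondrial limit, and VD3 DCs were still highest for C1qa alone, as the Ndrg2-KO culture was highest for C1qb and C1qc. With the mean over cells it was also above VD3 for both, at log2 0.04 and 0.10. C4b, which carries the classical pathway on to C3, was scarce in culture, with 49 UMIs (0.370 CPM) in untreated, 67 (0.575 CPM) in VD3 and 43 (0.299 CPM) in Ndrg2-KO DCs, and neighbouring intervals overlapped.

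C3, the protein on which all activation routes converge, stood at 104 CPM (102 to 106) in untreated, 344 CPM (340.2 to 347) in VD3 and 182 CPM (180.1 to 184) in Ndrg2-KO DCs, with no overlap. The VD3 to untreated log2 ratio of 1.72 (1.69 to 1.75) became 0.86 among cells under 5% mt- UMIs. C3 stood at 106, 192 and 185 CPM in them, so VD3 and Ndrg2-KO DCs were nearly level at that limit. Cfb, the protease of the alternative pathway convertase, was scarce, at 0.958 CPM (0.799 to 1.14), 0.876 CPM (0.714 to 1.06) and 1.75 CPM (1.54 to 1.98) in the same order, and the first 2 intervals overlapped. Under 5% mt- UMIs Cfb stood at 0.974, 0.542 and 1.77 CPM, and the VD3 to untreated log2 ratio was -0.85 in place of -0.13. Cfp, properdin, which stabilises that convertase, was nearly level at 286 CPM (283 to 289), 255 CPM (252 to 258) and 246 CPM (243 to 248), with untreated DCs highest. Its direction turned with the settings, as it stood at 234, 222 and 272 CPM under 5% mt- UMIs, highest in Ndrg2-KO DCs, and VD3 to untreated was 0.16 with the mean over cells.

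C3ar1, the receptor for C3a, spread farthest of the 9 genes between cultures. It stood at 28.4 CPM (27.5 to 29.4) in untreated DCs, 8.47 CPM (7.95 to 9.02) in VD3 DCs and 115 CPM (114 to 117) in Ndrg2-KO DCs. The log2 ratios were -1.75 (-1.85 to -1.65) for VD3 to untreated, 2.02 (1.97 to 2.07) for Ndrg2-KO to untreated and 3.77 (3.67 to 3.86) for Ndrg2-KO to VD3. Ndrg2-KO to untreated became 2.63 under 5% mt- UMIs, and Ndrg2-KO to VD3 became 3.17 with the mean over cells. C5ar1, the receptor for C5a, stood at 22.3 CPM (21.5 to 23.1), 23.2 CPM (22.4 to 24.1) and 31.7 CPM (30.8 to 32.6). Untreated and VD3 DCs overlapped for C5ar1 and the Ndrg2-KO culture was above both.

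A gene was called different when it had at least 50 UMIs in the 2 libraries together and its CPM differed more than 2-fold, and the 3 culture comparisons share libraries with one another. For VD3 against untreated DCs 2 of the 9 members passed, C3 upward and C3ar1 downward, where 11.6% of 13113 genes passed. For Ndrg2-KO against untreated DCs 1 of 9 passed, C3ar1 upward, where 19.5% of 13329 genes passed. For Ndrg2-KO against VD3 DCs 2 of 9 passed, C3ar1 upward and C1qa downward, where 22.2% of 13235 genes passed. The members' shares thus lay near those of all genes and are no result about the members. Their median log2 ratios were 0.59, 0.43 and -0.16 beside -0.08, -0.06 and 0.00 over all genes. The count for Ndrg2-KO against untreated DCs was 4 among cells under 5% mt- UMIs, with C1qb, C1qc and C5ar1 added. At that limit C1qa no longer passed for Ndrg2-KO against VD3 (log2 -0.47 in place of -1.47) and Cfb did (1.71 in place of 0.9966), so the count was 2 as before. For VD3 against untreated C1qa passed and C3 did not. All genes past 2-fold for Ndrg2-KO against VD3 split into 1723 higher and 1219 lower (58.6% higher), and 1468 and 1558 (48.5%) without mitochondrial and ribosomal genes. The cultures also differed in cell make-up. The 5 granulocyte progenitor markers, of which Prtn3 was most abundant, summed to 217, 85.2 and 6.04 CPM in untreated, VD3 and Ndrg2-KO DCs, with Mpo at 0 in the last. The 7 markers of cultured neutrophils, a list with Ltf and Ngp that was led by S100a8, summed to 5324, 6329 and 398 CPM, and their part in these ratios was not tested.

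In the wounds every member was counted at 36.7 CPM or more. C1qa stood at 726 CPM (716 to 736) with control DCs, 856 CPM (848 to 864) with Ndrg2-KO DCs and 712 CPM (703 to 721) with blank hydrogel. C1qb stood at 593 CPM (584 to 602), 804 CPM (796 to 812) and 557 CPM (549 to 565) in that order. C1qc stood at 467 CPM (459 to 475), 524 CPM (518 to 531) and 419 CPM (412 to 426). The wound with Ndrg2-KO DCs was highest for each chain, and control and blank wounds overlapped for C1qa alone. C4b stood at 706 CPM (696 to 716), 322 CPM (317 to 327) and 418 CPM (411 to 425), so the control wound was highest and the Ndrg2-KO wound lowest. The Ndrg2-KO to control log2 ratios were 0.24 (0.21 to 0.26) for C1qa, 0.44 (0.41 to 0.46) for C1qb, 0.17 (0.14 to 0.20) for C1qc and -1.13 (-1.16 to -1.10) for C4b. When each cell counted equally, in place of each UMI, the C1q ratios became -0.56, -0.23 and -0.61 and C4b -1.78, so the sign of the C1q differences rested on that choice. C3ar1 and Cfp, given next, moved as well, from -0.03 to -0.68 and from 0.63 to -0.01.

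C3 stood at 1733 CPM (1718 to 1748) with control DCs, 866 CPM (857 to 874) with Ndrg2-KO DCs and 1116 CPM (1105 to 1127) with blank hydrogel, with no overlap. It was the most counted member in the control and blank wounds, while its interval overlapped that of C1qa with Ndrg2-KO DCs. Its Ndrg2-KO to control log2 ratio was -1.0017 (-1.02 to -0.98), barely past 2-fold. Cfb stood at 59.3 CPM (56.6 to 62.1), 38.8 CPM (37.0 to 40.5) and 36.7 CPM (34.7 to 38.8), with the last 2 overlapping. Cfp ran the other way, at 138 CPM (134 to 142), 214 CPM (209.7 to 218) and 199 CPM (195 to 204), lowest in the control wound. C3ar1 stood at 153 CPM (149 to 158), 149.7 CPM (146 to 153) and 174 CPM (169 to 178), where control and Ndrg2-KO overlapped. C5ar1 stood at 171 CPM (166 to 176), 265 CPM (261 to 269.6) and 295 CPM (289 to 301), so both other wounds exceeded the control for C5ar1 and Cfp when each UMI counted equally.

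The wound comparisons share libraries, and the first 2 share the control wound. For Ndrg2-KO against control wounds 2 of 9 members passed 2-fold, C3 and C4b, both downward, where 10.6% of 13358 genes passed, and neither passed with median-ratio size factors. For blank against control wounds none of the 9 passed, where 7.6% of 13137 genes did. For Ndrg2-KO against blank wounds again none passed, where 3.76% of 13449 genes did. The median log2 ratios of the members were 0.17, -0.09 and 0.08, beside -0.15, -0.04 and -0.10 over all genes. The split of all genes past 2-fold depended on scaling. Ndrg2-KO against control gave 587 higher and 831 lower (41.4% higher), 810 and 531 (60.4%) with size factors, and 326 and 2414 (11.9%) with the mean over cells. Blank against control gave 487 and 511 (48.8%), and 269 and 1654 (14.0%) with the mean over cells. Ndrg2-KO against blank gave 236 and 270 (46.6%), and 305 and 227 (57.3%) with size factors. The median over all genes moved by -0.17 for Ndrg2-KO against VD3 without mitochondrial and ribosomal genes, and for Ndrg2-KO against control wounds by 0.17 with size factors and by -0.32 with the mean over cells. It moved by -0.22 for blank against control with the mean over cells and by 0.10 for Ndrg2-KO against blank with size factors, and in fibroblast-like cells by -0.10 and -0.11 with size factors.

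Cell make-up moved with these differences. Fibroblast-like cells were 519 of 1948 cells (26.6%) with control DCs, 564 of 5681 (9.93%) with Ndrg2-KO DCs and 382 of 3403 (11.2%) with blank hydrogel, and the 8 fibroblast markers, most abundant Col3a1 and none at 0, summed to 49931, 22532 and 22782 CPM. Neutrophil-like cells were 23.5%, 50.9% and 45.8% of cells, and the 7 markers of wound neutrophils, a list with Csf3r and Cxcr2 that was led by S100a9, summed to 8229.7, 26355 and 20454 CPM. The 10 macrophage markers, led by Apoe, were closer, at 10013, 8987 and 8751 CPM. Over all wound cells, macrophage-like cells held 86.8% of the UMIs of the 3 C1q chains and monocyte-like cells 10.2%. Fibroblast-like cells held 89.3% of C3 UMIs, 80.2% of C4b UMIs and 79.7% of Cfb UMIs. The library levels of C3 and C4b thus had the same order as the share of fibroblast-like cells, with control DCs first, blank hydrogel next and Ndrg2-KO DCs last, and the part of the cell shares in the ratios was not tested.

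**Figure D1:**
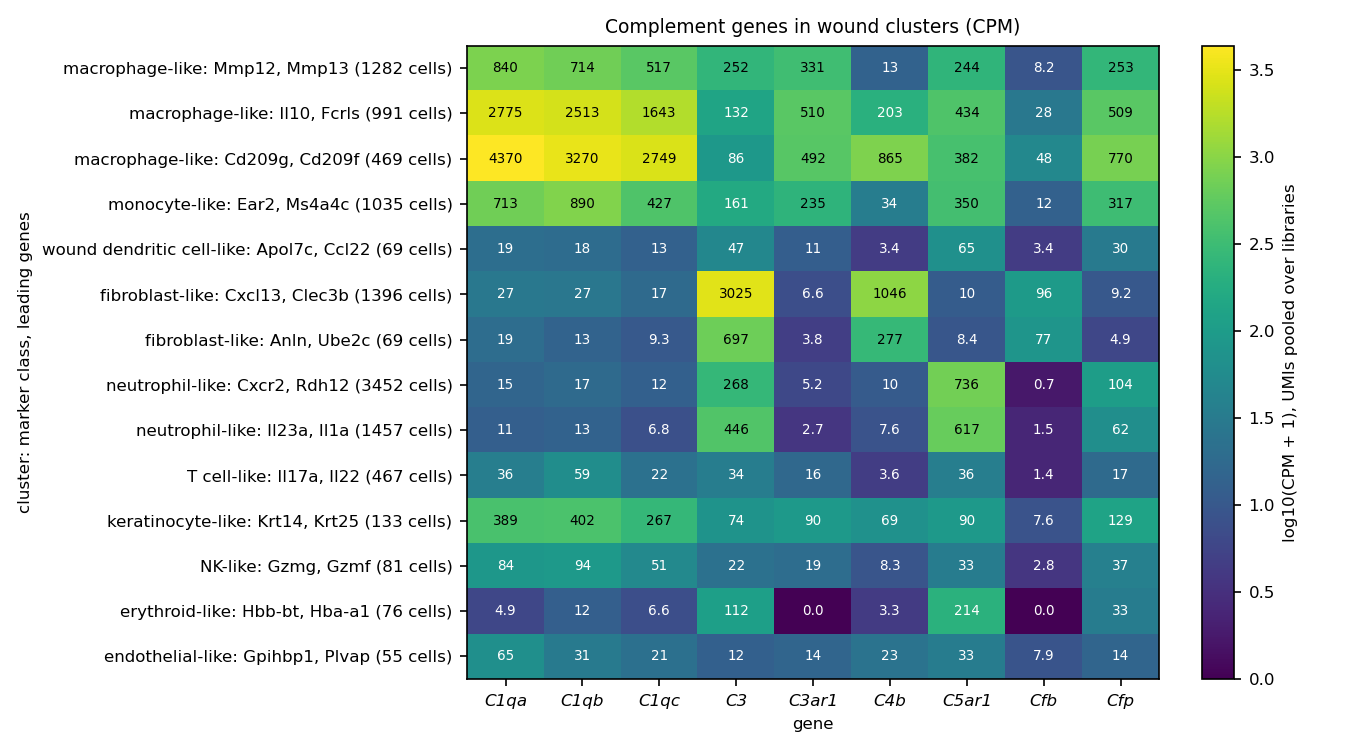
CPM of each complement gene (columns) in each of 14 wound clusters (y axis, named by marker class and leading genes), with UMIs pooled over the 3 wound libraries and colour on a log10(CPM + 1) scale. C1q RNA peaked in the Cd209g macrophage-like cluster (C1qa 4369.8 CPM), C3 in the Cxcl13 fibroblast-like cluster (3025 CPM) and C5ar1 in the Cxcr2 neutrophil-like cluster (736 CPM).

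Macrophage-like wound cells formed 3 clusters that differed in classical pathway RNA, and complement genes were kept out of the genes used for clustering. The cluster led by Cd209g, Cd209f and Lyve1 (469 cells, median 16946 UMIs) held resident-like markers and had the highest C1q of all wound clusters. Its C1qa stood at 4369.8 CPM (4325 to 4415), C1qb at 3269.9 CPM (3231 to 3309) and C1qc at 2749 CPM (2713 to 2785). The cluster led by Il10, Fcrls and Ccl12 (991 cells, median 10026 UMIs) followed with C1qa at 2775 CPM (2742 to 2807), and the cluster with Mmp12 and Mmp13 in the lead (1282 cells, median 11768 UMIs) had 839.6 CPM (826 to 853). These levels and the next pool the wounds, and none of the 4 intervals overlapped. The monocyte-like cluster led by Ear2, Ms4a4c and H2-Ab1 (1035 cells, median 10162 UMIs) came next at 713 CPM (698 to 729). It is named from 5 monocyte markers, but 6 of its 10 leading genes belong to MHC class II presentation (among them H2-Eb1, H2-Aa and Cd74) and 3 wound DC markers passed in it (Ccr7, Cd209a and Cd74), so monocytes and DCs cannot be told apart there. Thinned to 1000 UMIs per cell, 97.0%, 80.3%, 33.8% and 28.3% of their cells held a C1qa UMI, against 1.45% of the Cxcr2 neutrophil-like cells (median 2982.5 UMIs), a background for a gene those cells lack. The T cell-like cells (median 5249 UMIs) gave 1.08%. Unthinned, the shares were 99.6%, 88.1%, 56.6%, 43.2%, 4.26% and 6.21%, and thinning left out 25, 95 and 65 cells of the control, Ndrg2-KO and blank wounds. All 3 chains were found together in 386 of 469 Cd209g cells (82.3%) at this depth, in 506 of 922 Il10 cells (54.9%) and in 204 of 1279 Mmp12 cells (16.0%).

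C4b set the macrophage clusters farther apart than C1q did. It stood at 865 CPM (845 to 885) in the Cd209g cluster, 203 CPM (195 to 212) in the Il10 cluster and 12.9 CPM (11.3 to 14.8) in the Mmp12 cluster. Of the Cd209g cells 45.6% held a C4b UMI after thinning (unthinned 85.3%), against 0.973% of Cxcr2 neutrophil-like cells. The Cd209g cells were thus the one macrophage cluster whose C4b level came near that of fibroblasts, at 1046 CPM (1035 to 1056) in the Cxcl13 cluster.

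Between wounds, the class of macrophage-like cells had 555 cells with control DCs, 1372 with Ndrg2-KO DCs and 815 with blank hydrogel. C1qa in it stood at 2545 CPM (2509 to 2581), 2214 CPM (2192 to 2236) and 2009 CPM (1983 to 2036), highest with control DCs. C1qb stood at 1981 CPM (1949 to 2013), 1983 CPM (1962 to 2005) and 1473 CPM (1451 to 1497), where the first 2 overlapped. C1qc stood at 1646 CPM (1617 to 1676), 1359 CPM (1342 to 1377) and 1174 CPM (1153 to 1194), and C4b at 407 CPM (393 to 422), 249 CPM (241 to 257) and 203 CPM (194 to 211), so both were highest with control DCs and lowest with blank hydrogel. The share of these cells with a C1qa UMI after thinning was 72.3%, 54.1% and 64.7% (unthinned 87.9%, 66.5% and 81.6%). None of the 9 members passed 2-fold for Ndrg2-KO against control in this class, where 5.37% of 10031 genes did. For blank against control 1 of 9 passed, C4b at log2 -1.01 (-1.09 to -0.93), where 3.35% of 9559 genes did. C4b fell short of 2-fold there under other cluster settings and in the mean over cells. The members' median log2 ratios were -0.20 and -0.34, beside -0.04 and 0.04 over all genes. All genes past 2-fold for Ndrg2-KO against control split into 387 higher and 152 lower (71.8% higher), and 447 and 305 (59.4%) with the mean over cells.

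Inside the clusters the ratios did not all follow the class. In the Cd209g cluster C1qa stood at 4014, 4789 and 3844 CPM (137, 220 and 112 cells), a Ndrg2-KO to control log2 ratio of 0.25 (0.22 to 0.29). In the Il10 cluster C1qa stood at 2637, 2898 and 2719 CPM (255, 437 and 299 cells), a ratio of 0.14 (0.09 to 0.18). In the Mmp12 cluster C1qa stood at 977, 585 and 1139.5 CPM (163, 715 and 404 cells), a ratio of -0.74 (-0.81 to -0.67). The Mmp12 level with Ndrg2-KO DCs lay below the pooled level of the monocyte-like cluster. C1qa was thus higher with Ndrg2-KO DCs in the Cd209g and Il10 clusters and lower in the Mmp12 cluster. C1qb went the same way, with ratios of 0.48 (0.44 to 0.52), 0.39 (0.35 to 0.43) and -0.68 (-0.76 to -0.61) in these clusters.

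The macrophage-like cells were then clustered again on their own. A pair of sub-clusters was low in C1q, led by Ereg, Il6 and Il1b (11, 245 and 32 cells of the control, Ndrg2-KO and blank wounds) and by Mmp13, Edn1 and Nos2 (3, 185 and 10 cells). Their pooled C1qa stood at 208 CPM (192 to 224) and 248 CPM (228 to 269). Grouped after their values were seen, these sub-clusters held 14 of 555 macrophage-like cells (2.52%, 1.39 to 4.20) with control DCs, 430 of 1372 (31.3%, 28.9 to 33.9) with Ndrg2-KO DCs and 42 of 815 (5.15%, 3.74 to 6.90) with blank hydrogel. As 85.1% and 93.4% of their cells came from the Ndrg2-KO wound, they may be that library and not a state. In the 3 sub-clusters described next no library held more than 51.7% of the cells. C1qa stood at 4418 CPM (4371 to 4464) in the Cd209g and Lyve1 sub-cluster, 2848 CPM (2813 to 2883) in the Ccr2 and Il10 sub-cluster and 1298 CPM (1276 to 1321) in the Mfge8, Itgax and Gpnmb sub-cluster. In these the Ndrg2-KO to control log2 ratios of C1qa were 0.31 (0.28 to 0.35), 0.13 (0.09 to 0.17) and 0.36 (0.28 to 0.43), and those of C1qb 0.49, 0.41 and 0.32. The C1qc ratios of 0.36, -0.02 and -0.07 differed in sign. The blank to control C1qa ratios were 0.01, 0.06 and 0.15. The remaining 2 sub-clusters were led by mast cell and hemoglobin genes (47, 98 and 53 cells, median 1323 UMIs) and by neutrophil genes (7, 116 and 35 cells) and were given no name.

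**Figure D2:**
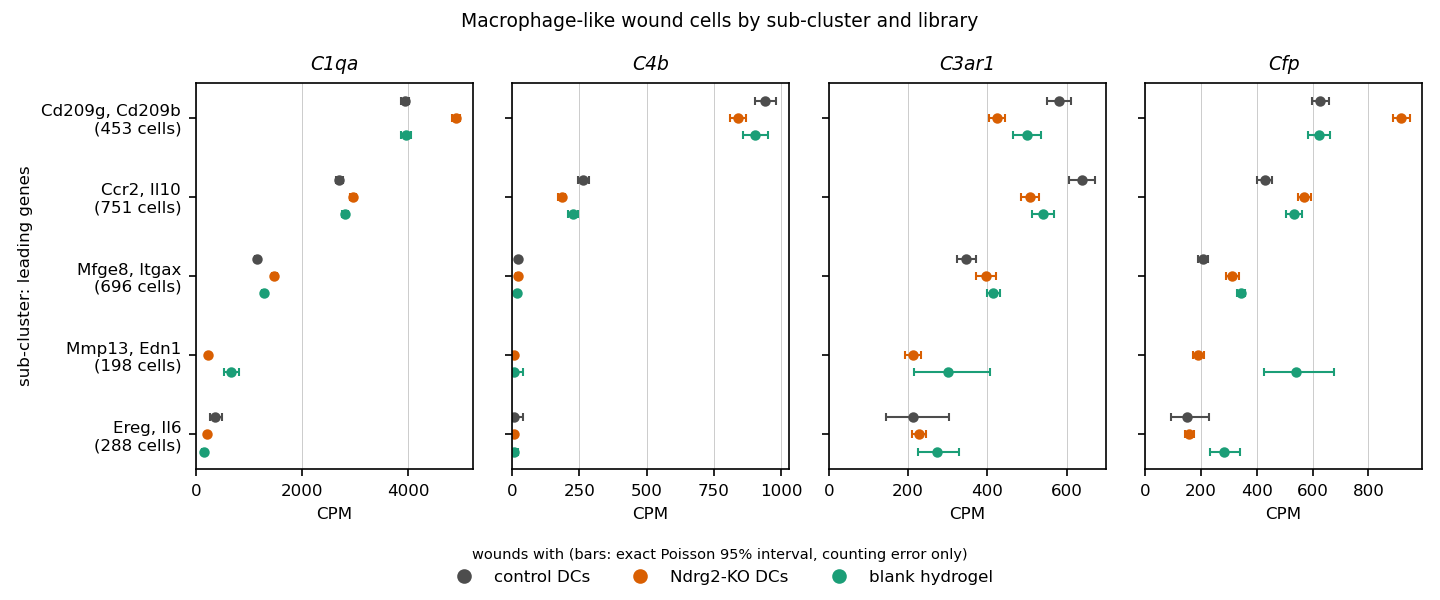
CPM (x axis) of C1qa, C4b, C3ar1 and Cfp in macrophage-like sub-clusters (y axis, leading genes) of the wounds with control DCs, with Ndrg2-KO DCs and with blank hydrogel, drawn where a library had at least 10 cells, with bars for the exact Poisson 95% interval. C1qa ran from 4902 CPM in the Cd209g sub-cluster with Ndrg2-KO DCs to 151 CPM in the Ereg sub-cluster with blank hydrogel.

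C1q in the cultured DCs differed between clusters, but 13 of the 17 culture clusters took at least 68.3% of their cells from 1 library and may be that library and not a state. C1qb was highest in VD3 cells led by Gdf15 and Ms4a7 (1143 cells) at 1005 CPM (991 to 1019), in VD3 cells led by Stfa1 and Camp (1114 cells) at 859 CPM (848 to 869.5) and in untreated cells led by Plet1, Cxcl3 and Mgl2 (1125 cells) at 713 CPM (703 to 724). The largest cluster, premature DC-like Ndrg2-KO cells with Mmp13 and Mamdc2 among their leading genes (3594 cells), had C1qb at 530.0 CPM (525 to 535), and cycling Ndrg2-KO cells led by Cep55 (1071 cells) had 404 CPM (396 to 411). Thinned to 2000 UMIs, C1qb was found in 45.4%, 41.3%, 48.3% and 48.2% of the Gdf15, Stfa1, Plet1 and premature DC-like clusters (unthinned 61.5%, 57.7%, 75.4% and 80.9%; medians 15176, 22368, 20469 and 18907.5 UMIs). Basophil-like cells (57 untreated, 77 VD3 and 1 Ndrg2-KO), which should lack it, gave 0.813% at a median of 7195 UMIs (unthinned 3.70%), and thinning left out 472, 1149 and 134 cells of the untreated, VD3 and Ndrg2-KO cultures. The Gdf15 and premature DC-like clusters thus had like shares of C1qb cells and unlike levels.

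Mature DC-like cells, named from markers such as Ccr7, Fscn1 and Ccl22, were low in C1q in every culture. They formed 4 clusters, led by Olfr920 and Ndnf (99.5% VD3), by Eno3 and Grasp (93.2% untreated), by Htra1 and Klrd1 (99.2% Ndrg2-KO) and by Gm26917 (47.2% VD3). Fscn1 did not pass as a marker in the Htra1 cluster, and the Gm26917 cluster passed on Fscn1, Cacnb3 and Ccl5 alone. Library and state cannot be told apart in the Olfr920, Eno3 and Htra1 clusters. C1qb in the class stood at 16.2 CPM (15.0 to 17.5) in 2686 untreated cells, 19.4 CPM (18.2 to 20.7) in 3485 VD3 cells and 68.3 CPM (65.1 to 71.5) in 2111 Ndrg2-KO cells. The Ndrg2-KO cells were highest, at a log2 ratio of 2.07 (1.94 to 2.21) to untreated. A cluster with cDC1 markers (Itgae, Clec9a and Irf8) held 80 untreated cells with C1qb at 17.3 CPM (10.6 to 26.7) and 149 VD3 cells with 373 CPM (346 to 400.4). C1qb in it was thus far higher with VD3 (median 12700 UMIs for the whole cluster).

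C3 RNA in the wounds was counted mostly in fibroblast-like cells. The Cxcl13, Clec3b and Ogn cluster (1396 cells, median 26916.5 UMIs), which held all 8 fibroblast markers, had C3 at 3025 CPM (3007 to 3042), C4b at 1046 CPM (1035 to 1056) and Cfb at 95.6 CPM (92.5 to 98.7). After thinning 69.4% of its cells held a C3 UMI (unthinned 91.1%), against 1.73% of T cell-like cells (unthinned 8.14%). For Cfb the shares were 7.29% and 0.433% (unthinned 66.8% and 0.857%). The next highest C3 was in a cycling cluster led by Anln and Ube2c (69 cells) at 697 CPM (669.9 to 726), which carried 3 of 8 fibroblast markers and was counted with the fibroblast-like class. Neutrophil-like cells came after these, with 446 CPM (429 to 462) in the Il23a and Il1a cluster (1457 cells) and 268 CPM (259 to 278) in the Cxcr2 cluster (3452 cells), ahead of the Mmp12 macrophage-like cells at 252 CPM (244 to 259). The Cxcr2 and Mmp12 intervals overlapped.

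Within the Cxcl13 fibroblast cluster C3, C4b and Cfb differed by less than 2-fold between wounds. C3 stood at 3147 CPM (3119 to 3176) with control DCs (506 cells), 2666 CPM (2638 to 2694) with Ndrg2-KO DCs (526 cells) and 3306 CPM (3270.3 to 3341) with blank hydrogel (364 cells), lowest with Ndrg2-KO DCs. C4b stood at 1135 CPM (1118 to 1152), 828 CPM (813 to 844) and 1194 CPM (1173 to 1216), and Cfb at 90.7 CPM (86.0 to 95.6), 101 CPM (95.5 to 106) and 96.1 CPM (90.1 to 102), where neighbours overlapped for Cfb alone. The Ndrg2-KO to control log2 ratios were -0.24 (-0.26 to -0.22) for C3, -0.45 (-0.49 to -0.42) for C4b and 0.15 (0.04 to 0.26) for Cfb, and blank to control 0.07 (0.05 to 0.09), 0.07 (0.04 to 0.11) and 0.08 (-0.04 to 0.20). The fall of C3 and C4b by 2-fold across whole libraries was thus much smaller inside this cluster. With the cycling cells added (519, 564 and 382 cells) the class ratios for Ndrg2-KO against control were -0.34 (-0.36 to -0.32) for C3, -0.55 (-0.58 to -0.52) for C4b and 0.04 (-0.06 to 0.15) for Cfb.

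In the fibroblast-like class 6 of 9 members passed 2-fold for Ndrg2-KO against control, all upward (C1qa, C1qb, C1qc, C3ar1, C5ar1 and Cfp), where 6.5% of 11386 genes passed. For blank against control 2 of 9 passed upward, C5ar1 and Cfp, where 4.39% of 11150 genes did. These were the myeloid members, at low levels, with C1qa at 16.0, 36.3 and 29.0 CPM in the 3 wounds against 2545 in macrophage-like cells of the control wound. Thinned, 1.75% of the Cxcl13 cells held C1qa, and the source of this RNA was not tested. A sub-cluster led by immunoglobulin and macrophage genes (Igkc, Ighm, Ctss and Lyz2) made up 2.70%, 10.3% and 5.76% of fibroblast-like cells and had C1qa at 336 CPM, while those led by Penk, Angptl1, Smpd3 and Reg3g had at most 4.51 CPM. Without the sub-clusters led by other classes' markers the first count was 3 of 9, and with each library clustered alone it was 0. The ratios did not all fall. Without those sub-clusters C1qa went from 1.18 to 2.03 and C5ar1 from 1.41 to 2.15, while Cfp went from 1.12 to 0.22. Without the highest doublet scores C1qa was 1.81, C3ar1 2.61 and C5ar1 2.21, so neither removal lowered all of them and the cause was not tested. The members' median log2 ratios were 1.12 and 0.64, beside 0.10 and 0.10 over all genes.

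Fibroblast-like sub-clusters spread C3 over a wide range. The levels given next pool the wounds, and the order of C3 differed in the control wound. It stood at 6371 CPM (6307 to 6435) in cells led by Smpd3, Cxcl13 and Scara5 (260 cells), 3552 CPM (3502 to 3603) in cells led by Reg3g, Lepr and Ngfr (215 cells) and 2595 CPM (2561 to 2628) in cells led by Angptl1 and C1qtnf3 (319 cells). It was 2095 CPM (2070.2 to 2120.3) in cells led by Penk, Ereg and Areg (358 cells) and 551 CPM (531 to 572) in cycling cells led by Hist1h1b and Top2a (103 cells), so no neighbours in this order overlapped. C4b kept the Smpd3 cells on top at 1871 CPM (1837 to 1906) and put the Angptl1 cells next at 1125 CPM (1103 to 1147), then the Reg3g cells at 1015 CPM (988 to 1042), the Penk cells at 836 CPM (821 to 852) and the cycling cells at 220.4 CPM (208 to 234). Cfb differed in that the Penk cells led at 128 CPM (121 to 134), followed by the Angptl1, Smpd3 and Reg3g cells at 83.9, 83.9 and 81.5 CPM, which overlapped.

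The libraries filled these sub-clusters unequally. The Smpd3 cells, highest in C3, were 138 of 519 fibroblast-like cells with control DCs (26.6%), 12 of 564 (2.13%) with Ndrg2-KO DCs and 110 of 382 (28.8%) with blank hydrogel. The Reg3g cells were 28 (5.39%), 175 (31.0%) and 12 (3.14%), and as 81.4% of them came from the Ndrg2-KO wound they may be that library. The Penk cells were the most even, at 127, 143 and 88 cells, and in them C3 stood at 2388 CPM (2346 to 2429.7), 1600.3 CPM (1563 to 1638) and 2276 CPM (2224 to 2329). Their Ndrg2-KO to control log2 ratio was -0.58 (-0.62 to -0.53) for C3 and -0.53 (-0.60 to -0.46) for C4b. In the Angptl1 cells (166, 82 and 71 cells) C3 stood at 2429.6 CPM (2387 to 2473), 2273 CPM (2206 to 2341) and 3339 CPM (3258 to 3421), ratio -0.10 (-0.15 to -0.05). In the Reg3g cells it stood at 1874 CPM (1775 to 1977), 3809 CPM (3752 to 3867) and 3762 CPM (3520.4 to 4016), ratio 1.02 (0.94 to 1.10). C3 was thus higher with Ndrg2-KO DCs than with control DCs in the Reg3g cells, with 28 control cells, and lower in the Penk and Angptl1 cells. In the control wound the Reg3g cells (1874 CPM) stood below the Angptl1 (2429.6 CPM) and Penk (2388 CPM) cells, unlike in the pooled order. The cycling cells (16, 45 and 42 cells) differed most, with C3 at 1654, 616 and 122 CPM.

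**Figure D3:**
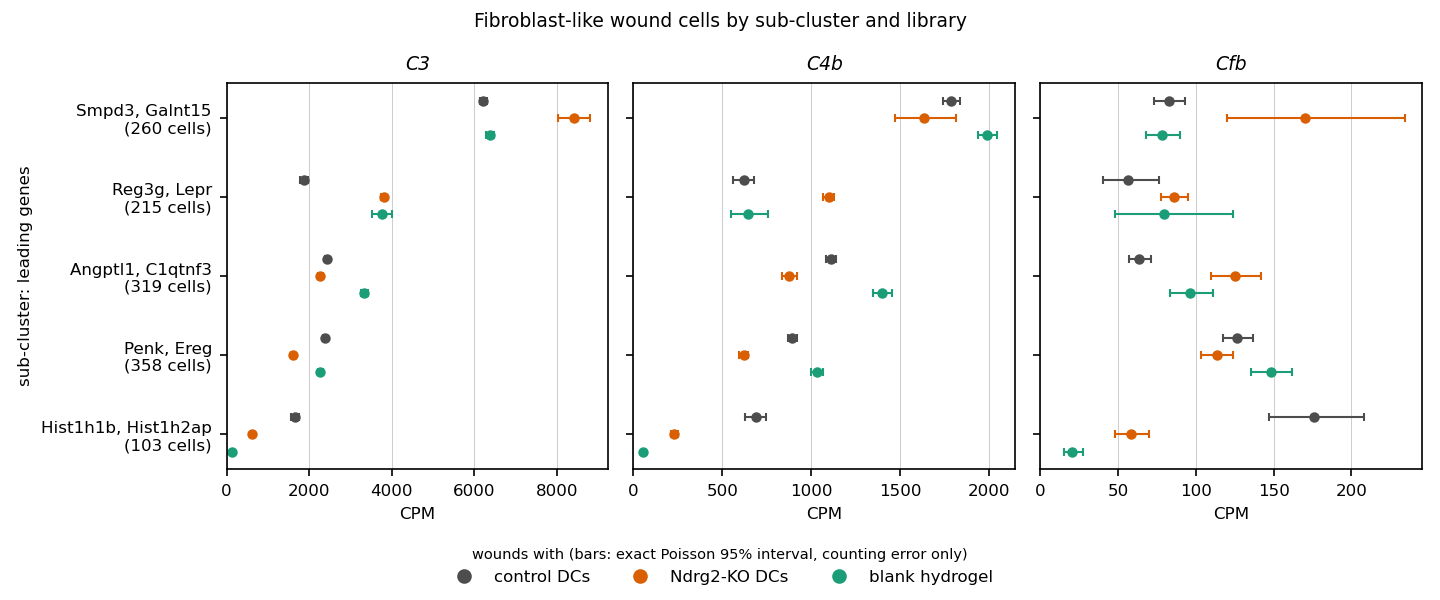
CPM (x axis) of C3, C4b and Cfb in fibroblast-like sub-clusters (y axis, leading genes) of the wounds with control DCs, with Ndrg2-KO DCs and with blank hydrogel, with bars for the exact Poisson 95% interval. C3 was highest in the Smpd3 sub-cluster, from 6221 to 8415 CPM, and lowest in the cycling Hist1h1b sub-cluster with blank hydrogel at 122 CPM.

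C3 in the cultured DCs was highest in the VD3 cells led by Gdf15 and Ms4a7 at 812 CPM (799 to 824), which held 19.7% of all C3 UMIs in culture. The VD3 cells led by Stfa1 and Camp had 493 CPM (485 to 502), a smaller VD3 cluster led by Ms4a7 and Gdf15 (333 cells) 458 CPM (444 to 471), the neutrophil-like cells led by Stfa2 and Csf3r (2062 cells) 453 CPM (439 to 467) and the mature DC-like Ndrg2-KO cells led by Htra1 and Klrd1 (1833 cells) 445 CPM (437 to 454), where the last 3 overlapped. In the mature DC-like class C3 stood at 23.2 CPM (21.7 to 24.7) in untreated, 78.3 CPM (75.9 to 80.8) in VD3 and 414 CPM (406 to 422) in Ndrg2-KO DCs. The Ndrg2-KO to untreated log2 ratio was 4.16 (4.06 to 4.26), VD3 to untreated 1.76 (1.65 to 1.86) and Ndrg2-KO to VD3 2.40 (2.35 to 2.45). Thinned, 3.25%, 8.54% and 39.8% of these cells (median 13219 UMIs) held a C3 UMI (unthinned 11.7%, 23.9% and 64.7%), against 3.25% of basophil-like cells (unthinned 5.93%). At that depth the untreated share equalled the basophil-like share. The ratios to untreated DCs are therefore over a level not shown to exceed background. As 1 of the basophil-like cells was from the Ndrg2-KO culture, no background was measured in that culture. In the neutrophil-like cluster C3 stood at 407 CPM in untreated (921 cells) and 501 CPM in VD3 DCs (1107 cells), and the Ndrg2-KO culture had 34 such cells.

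**Figure D4:**
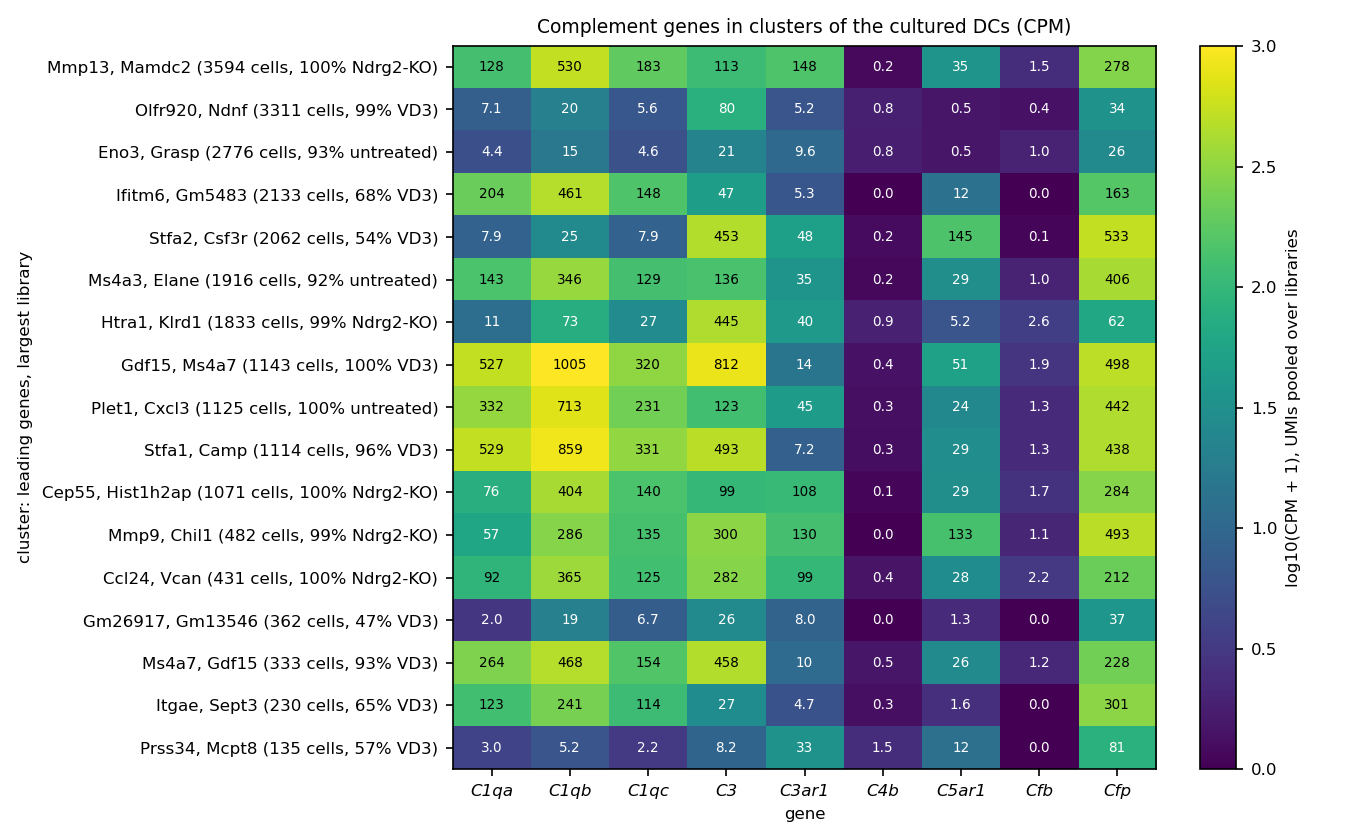
CPM of each complement gene (columns) in each of 17 clusters of cultured DCs (y axis, named by leading genes and the library with most cells), with UMIs pooled over the 3 cultures and colour on a log10(CPM + 1) scale. C1qb and C3 were highest in the Gdf15 and Ms4a7 cluster (1005 and 812 CPM), and C3ar1 in the Mmp13 and Mamdc2 cluster (148 CPM).

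Cfp was a myeloid RNA in both settings. In the wounds macrophage-like cells held 73.0% of its UMIs, monocyte-like cells 16.2% and neutrophil-like cells 7.13%. It stood at 770.0 CPM (751 to 789) in the Cd209g, 509 CPM (495 to 523) in the Il10 and 253 CPM (246 to 261) in the Mmp12 macrophage-like cluster. The order was that of C1q. In the Cd209g cluster it stood at 631, 900.4 and 646 CPM with control DCs, with Ndrg2-KO DCs and with blank hydrogel, a Ndrg2-KO to control log2 ratio of 0.51 (0.43 to 0.60). The sub-cluster ratios were 0.55 in the Cd209g, 0.41 in the Ccr2 and 0.60 in the Mfge8 cells, so each was above 0. Among cultured DCs Cfp was highest in the neutrophil-like cells at 533 CPM (518 to 548), the Gdf15 VD3 cells at 498 CPM (489 to 508) and the Mmp9 and Chil1 Ndrg2-KO cells at 493 CPM (473 to 514), and the last 2 overlapped.

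The receptors had different carriers. In the wounds macrophage-like cells held 82.2% of C3ar1 UMIs, while C5ar1 was shared between neutrophil-like cells at 42.1% and macrophage-like cells at 40.9%. C3ar1 stood at 509.7 CPM (496 to 524) in the Il10 and 492 CPM (477 to 508) in the Cd209g cluster, which overlapped, and at 331 CPM (322 to 339) in the Mmp12 cluster. The neutrophil-like cells were at 5.23 and 2.75 CPM. C5ar1 was highest in the Cxcr2 neutrophil-like cells at 736 CPM (720.2 to 752) and next in the Il23a neutrophil-like cells at 617 CPM (597 to 637), ahead of the Il10 cluster at 434 CPM (421 to 447). After thinning 47.3% of the Cxcr2 cells held a C5ar1 UMI (unthinned 77.6%), against 1.24% of Cxcl13 fibroblast-like cells (unthinned 8.74%). By wound, C5ar1 in neutrophil-like cells stood at 822 CPM (778 to 867), 603 CPM (587 to 618) and 808 CPM (785 to 831), lowest with Ndrg2-KO DCs, where the other two overlapped. The Il23a cluster was 86 of 458, 1071 of 2893 and 300 of 1558 of these cells. C5ar1 was lowest with Ndrg2-KO DCs in both clusters, at 830.4, 650.2 and 813 CPM in the Cxcr2 cells and 789, 544 and 792 CPM in the Il23a cells. C3ar1 in macrophage-like cells stood at 506 CPM (489.7 to 522), 365 CPM (355 to 374) and 446 CPM (434 to 459), also lowest with Ndrg2-KO DCs, with a log2 ratio to control of -0.47 (-0.53 to -0.41). In the Cd209g cluster that ratio was -0.45 (-0.55 to -0.35).

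In culture C3ar1 belonged to the Ndrg2-KO clusters. It stood at 148 CPM (145 to 150.4) in the premature DC-like cells, which held 50.9% of its UMIs, at 130.1 CPM (119.8 to 141) in the Mmp9 cells, at 108 CPM (104 to 112) in the Cep55 cells and at 99.3 CPM (93.0 to 106) in the Ccl24 and Vcan cells, where the last 2 overlapped. After thinning 24.4% of the premature DC-like cells held a C3ar1 UMI (unthinned 81.9%), against 0.873% of cDC1-like cells (unthinned 5.22%), of which 1 was a Ndrg2-KO cell, so these are no background for that culture. The Gdf15 VD3 cells had 13.6 and the Plet1 untreated cells 44.8 CPM. In mature DC-like cells C3ar1 stood at 9.93 CPM (8.99 to 10.9), 5.06 CPM (4.46 to 5.73) and 37.3 CPM (35.0 to 39.8) in untreated, VD3 and Ndrg2-KO DCs, so the order of the libraries held inside a class. C5ar1 was highest in the neutrophil-like cells at 145 CPM (137 to 153) and in the Mmp9 cells at 133 CPM (122 to 144), which overlapped, and at most 5.21 CPM in each mature DC-like cluster.

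The wound DC-like cells, led by Apol7c, Ccl22 and Ccr7, were few, with 14, 23 and 32 cells in the control, Ndrg2-KO and blank wounds. Over all 69, C1qa stood at 19.4 CPM (11.3 to 31.1), C3 at 46.9 CPM (33.6 to 63.6), C5ar1 at 65.2 CPM (49.4 to 84.4) and Cfp at 29.7 CPM (19.4 to 43.6). None of 68 thinned cells held C1qa (0 to 5.28%), which cannot be told apart from background at this depth. C3 was 0 UMIs with control DCs, 16 UMIs at 52.3 CPM (29.9 to 85.0) with Ndrg2-KO DCs and 25 UMIs at 59.2 CPM (38.3 to 87.3) with blank hydrogel, and no difference between the last 2 was detectable at this depth. Like the mature DC-like cells in culture, they were low in C1q.

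Of 45 other complement genes on a list of components, regulators and receptors, 8 of the 21 with enough UMIs passed 2-fold for VD3 against untreated DCs (3 higher and 5 lower). For Ndrg2-KO against untreated DCs 8 were higher and 2 lower of 22, and for Ndrg2-KO against VD3 11 higher and 4 lower of 22. Itgb2, the shared chain of the iC3b receptors, stood at 192, 136 and 504 CPM in untreated, VD3 and Ndrg2-KO DCs, highest in the last. In the wounds 0 were higher and 4 lower of 25 for Ndrg2-KO against control, 0 and 5 of 24 for blank against control, and 3 and 0 of 24 for Ndrg2-KO against blank. The proteases C1s1, at 340.3, 142 and 197 CPM, and C1ra, at 208, 99.0 and 122 CPM, were highest with control DCs, as C4b was. Within fibroblast-like cells C1s1 stood at 626, 465 and 603 CPM and C1ra at 380, 316 and 369 CPM. There the control and blank intervals overlapped for both. In macrophage-like cells none of 18 passed for Ndrg2-KO and 4 of 16, all lower, for blank. In fibroblast-like cells 4 were higher and 1 lower of 20 for Ndrg2-KO, and 3 and 3 of 19 for blank. The medians of these other genes were -0.36, 0.63, 1.12, -0.54, -0.71, -0.02, -0.24, -0.26, 0.04 and -0.05 in the order given, beside -0.08, -0.06, 0.00, -0.15, -0.04, -0.10, -0.04, 0.04, 0.10 and 0.10 over all genes. The shares of all genes past 2-fold were 11.6%, 19.5%, 22.2%, 10.6%, 7.6%, 3.76%, 5.37%, 3.35%, 6.5% and 4.39% in the same order.

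Over the 31 clusters with at least 50 cells (14 of the wounds and 17 of the cultures), the genes most alike were found by Pearson correlation of log2(CPM + 10) among 13658 genes, as a description over clusters that share libraries. C1qa was most like C1qc (0.97), C1qb (0.94) and Cln8 (0.89). C1qb was most like C1qc (0.98), C1qa and Atp13a2 (0.88), and C1qc, after the other chains, was most like Cln8 (0.91). The 3 chains were thus each other's nearest genes. C4b was most like Cfb (0.96), then Pyroxd2 (0.94) and Rnase4 (0.94), and Cfb most like C4b, Lpar1 and Rnase4 (both 0.95). C3 had no close match, with Hp and Best1 at 0.74 and Mgst1 at 0.73. C3ar1 was most like Cebpa (0.91), Cdk20 and Tlr7 (both 0.90), C5ar1 most like Slc11a1, Mapkapk2 (both 0.94) and Il10rb (0.93), and Cfp most like P2ry6 (0.92), Evi2a (0.91) and March1 (0.90).

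The 3 C1q genes lie on the minus strand of chromosome 4 within 18675 bases, in the order C1qb, C1qc and C1qa. RefSeq promoters (GRCm38.p6) matched 6 of the 9 members by symbol: C1qb, C1qc, C3, C3ar1, C5ar1 and Cfp. That of C1qb (chr4:136886201-136886450, minus strand) is shown, 5′ to 3′, for the chain most counted in culture, as the 250 bases before the RefSeq start, outside the gene as GENCODE M21 places it. That of C1qc (chr4:136892915-136893164, minus strand) is not shown, because GENCODE M21 starts C1qc farther upstream and puts part of the window in its first exon. Both strands were searched for GAGGAA (core of PU.1 sites), TGCTGA (a Maf half-site) and TTCNNNGAA (a STAT-type palindrome), and capitals mark the matches.
C1qb: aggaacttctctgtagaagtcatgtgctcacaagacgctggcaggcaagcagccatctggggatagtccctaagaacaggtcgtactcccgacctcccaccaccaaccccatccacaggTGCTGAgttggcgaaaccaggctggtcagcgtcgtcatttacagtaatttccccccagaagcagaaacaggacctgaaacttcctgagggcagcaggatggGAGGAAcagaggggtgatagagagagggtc
C1qb held 1 GAGGAA and 1 TGCTGA, which do not overlap, and the C1qc window held 1 GAGGAA on the other strand. The C3, C3ar1 and C5ar1 windows each held 1 Maf half-site and no PU.1 core, and the Cfp window held no match. GENCODE M21 starts C5ar1 farther upstream and puts most of its window, with the match, inside the gene. Of all 32851 promoter windows of this length, 23.3% held the PU.1 core, 16.1% the Maf half-site and 7.02% the STAT-type palindrome, and a match describes letters only.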

How the data were processed

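The counts are UMIs per gene and cell as deposited by the authors, aligned with Cell Ranger 3.1.0 for the cultures and 6.0.0 for the wounds by their file headers. The labels name Seurat 3.1.1 for the authors' filtering, but the limits given next left 35083 of the 41068 deposited barcodes, so the deposited counts had not been filtered to them. The labels give build mm9 and the study's text mm10, while the gene identifiers matched GENCODE M21 (GRCm38). CPM, percent, log2 values and ratios were computed here with Python 3.11.15, NumPy 2.4.6, SciPy 1.17.1, pandas 2.3.3, scanpy 1.11.5, matplotlib 3.10.9, R 4.3.3, Seurat 5.3.0 and Matrix 1.6.5. The scripts were tested on simulated data.

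Kept cells had at least 300 genes, under 100000 UMIs and under 10% mt- UMIs. Scrublet in scanpy marked 1, 0, 1, 17, 1 and 0 cells in the 6 libraries (at most 0.873% of a library), so all were kept, and an alternative left out the 6% of cells with the highest scores. Cells were log-normalised to 10000 and clustered in Seurat, cultures and wounds apart and libraries together, with 2000 variable genes without complement genes, 15 principal components, 15 neighbours and resolution 0.5. Macrophage-like and fibroblast-like cells were clustered again by the same steps. A cluster was named from marker lists (among them macrophage, resident-like macrophage, monocyte, wound DC, fibroblast, neutrophil, T cell, NK, keratinocyte, endothelial, pericyte, erythroid, melanocyte, and for cultures mature and premature DC, cDC1, proliferating, granulocyte progenitor, neutrophil and basophil) when at least 3 markers stood at 50 CPM and 2-fold over the other clusters, and leading genes are those with the highest such ratio. Clusters whose leading genes went against their list were called by those genes.

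UMIs were summed over the cells of a library, class or cluster. A gene was compared where its 2 sums together held 50 UMIs or more, and called past 2-fold. Shares of cells were computed after thinning wound cells to 1000 and cultured cells to 2000 UMIs. Genes alike in pattern needed 200 UMIs over clusters of at least 50 cells, and the first 3 were named for each member. All 9 members were named, with other complement genes by count. The members, marker lists and complement list were chosen with earlier results of these data known.

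The alternatives were all deposited barcodes, at least 300 UMIs, under 5% mt- UMIs, no cells with high doublet scores, median-ratio size factors, no mitochondrial or ribosomal genes, the mean over cells, 3-fold, no minimum count, resolution 1.0, 30 components, complement genes among the variable genes, each library clustered alone, 4 markers for a name, and other thinning depths. One further alternative, without sub-clusters led by markers of other classes, was added after seeing the data.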

Additional observations from a re-analysis of the deposited data

How the results depend on the processing

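Of 594 log2 ratios of members under the alternatives, 33 moved by over 1.5 times and 26 changed sign, while none of those past 2-fold reversed. Of 106 counts of members past 2-fold, 83 came within 1.5 times of the first value and 23 did not. Shares of cells with a UMI depended on depth: of 117 at other depths or unthinned, 112 fell outside the first interval, so they compare groups at 1 depth only. For Ndrg2-KO against untreated DCs the count of 1 became 4 under 5% mt- UMIs. For Ndrg2-KO against VD3 DCs the count of 2 became 4 without mitochondrial and ribosomal genes and 1 at 3-fold. For Ndrg2-KO against control wounds the count of 2 became 0 with size factors and 0 at 3-fold, and for blank against control the count of 0 became 1 in the mean over cells. In macrophage-like cells the Ndrg2-KO count of 0 became 1 in the mean over cells. There the blank count of 1 (C4b) became 0 at resolution 1.0, with 30 components, with complement genes variable, with each library alone, without mixed sub-clusters, in the mean over cells and at 3-fold. In fibroblast-like cells the Ndrg2-KO count of 6 became 1 at resolution 1.0, 3 with 30 components, 0 with each library alone, 3 without mixed sub-clusters and 0 at 3-fold. There the blank count of 2 became 1 with each library alone, 4 without the highest doublet scores, 4 in the mean over cells and 0 at 3-fold.

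The share of C1q UMIs in macrophage-like cells (86.8%) became 89.8% with 30 components, 89.6% with complement genes variable, 91.0% with each library alone and 88.4% without high doublet scores. The share of C3 UMIs in fibroblast-like cells (89.3%) became 88.8% at resolution 1.0, 88.8% with 30 components, 64.2% with each library alone and 87.5% with 4 markers. The share of C4b UMIs there (80.2%) became 79.6% at resolution 1.0, 79.7% with 30 components, 62.3% with each library alone, 78.3% with 4 markers, 80.6% under 5% mt- UMIs and 79.5% without high doublet scores. For each of these the cause was not tested.

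No paired analysis was possible because each group is 1 library. The intervals cover counting error, so a difference between libraries can be one between mice, cultures, dissociations or captures, which cannot be told apart. Cultures and wounds differ in Cell Ranger version and were not compared by ratio. Under 5% mt- UMIs kept 43.1%, 41.0% and 21.6% of the cultured cells and at least 96.7% of each wound library, so the mitochondrial limit bears mainly on the cultures. The wound DC-like cells, the Smpd3 fibroblast-like cells with Ndrg2-KO DCs and the low-C1q macrophage-like cells with control DCs were too few for more than a level.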

Other observations

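The C1q chains did not keep 1 ratio across the cultures. C1qa to C1qb UMIs stood at 0.434 (0.426 to 0.442) in untreated DCs, 0.565 (0.557 to 0.573) in VD3 DCs and 0.228 (0.224 to 0.232) in Ndrg2-KO DCs, with exact 95% intervals, while C1qc to C1qb stood at 0.348, 0.352 and 0.350. C1qa was therefore the chain that varied. In the wounds C1qa to C1qb was 1.22, 1.06 and 1.28 with control DCs, with Ndrg2-KO DCs and with blank hydrogel, and C1qc to C1qb 0.787, 0.652 and 0.752. Whether the step from culture to wound lies in the cells or in the Cell Ranger versions cannot be told apart.

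Cfd, the protease that activates Cfb, had 1702 UMIs in the control wound, and 1695 of them came from 2 of its 519 fibroblast-like cells, 1694 in the Smpd3 sub-cluster and 1 in the Reg3g sub-cluster. In the Ndrg2-KO and blank wounds Cfd stood at 0.345 and 0.315 CPM. Its fall past 2-fold in those wounds therefore rests on 1 cell, and Cfd was not used to name the Smpd3 sub-cluster, of which it had the highest ratio to the other sub-clusters.

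The inhibitor Serping1 stood at 819.8, 448 and 447 CPM in the wounds and at most 0.00696 CPM in culture. Fibroblast-like cells held 24167 of its 24329 UMIs in the control wound. Within them Serping1 stood at 1517, 1479 and 1379 CPM with control DCs, with Ndrg2-KO DCs and with blank hydrogel, closer than across whole libraries. The seeded cells carried no tag in the counts, since the row for eGFP held 1 UMI in 1 cell of the Ndrg2-KO wound and 0 in the other wounds, and that for tdTomato 0, so wound cells could not be split into seeded and host cells.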
